A study of Macaca fascicularis with 36 samples.

Results

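The 100 most abundant genes of control frontal cortex were chosen on their mean CPM (the count of a gene scaled to a library total of 1000000 counts) over the 12 libraries of the anti-gD animals. They are 100 of 28623 genes in the deposited tables. Before ranking, 5820 genes were set aside: those with a deposited gene width of 200 bases or less, the identifiers numbered 1 to 24 and ENSMFAG00000042945. These took 0.401% to 1.07% of the counts of a library. The levels in the anti-gD libraries chose the members, so those levels and every contrast with anti-gD are given for the members as a description.

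Bulk RNA came from the frontal cortex of 12 animals, cynomolgus monkeys (Macaca fascicularis), with 4 animals in each of 3 groups and 3 libraries, lettered A, B and C, from each animal. All animals received antibody intrathecally, into the fluid around the spinal cord, and cortex was taken 2 days later. Animals 1501 to 1504 received 200 mg/kg of anti-gD, the isotype control. Para09, an antibody that activates human TREM2, was given at 50 mg/kg to animals 4501 to 4504 and at 200 mg/kg to animals 5501 to 5504. A group without antibody was not analysed here, and how a dose per kg applies to this route is not stated. Strain, age and the meaning of the 3 letters are not stated either.

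The sample numbers in the library titles form 2 separate runs, called here the first series, with 16 libraries, and the second series, with 20. The B library of every animal is in the first series, together with the A and C libraries of animals 1504 and 5501, and for the other 10 animals A and C make up the second series. Total counts were 15067000 to 36969714 per library, with a median of 19935423 in the first series and 23173356 in the second. Library 5501B had a count in 15779 genes, the fewest, against a median of 18740 over the 36 libraries. The summed counts were 52.9% to 63.0% of the total that the deposited RPKM values (counts per kilobase of width, scaled to depth) imply.

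In any tissue a small number of transcripts supplies much of the RNA that is sequenced, and in cortex these come from the energy metabolism, cytoskeleton, synapses and glia that make up its mass. TREM2 is a surface receptor of microglia, which are the brain's own immune cells, and an agonist antibody is meant to trigger its signalling. Because the shares of all genes in a library sum to a fixed whole, a larger share of a few abundant genes lowers the share of the rest without any change in their transcripts. In bulk RNA, fewer cells of a type and less RNA per cell cannot be told apart.

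The files do not pair identifiers with gene symbols, and 0 identifiers were found in the reference table at hand, so members are given by identifier and no cell type marker could be checked against the cortex label. Whether reads matching several places were counted is not stated, and members with near-identical copies elsewhere in the genome may have gained or lost counts to them.

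Counts were concentrated in few genes. In the 12 anti-gD libraries the most abundant gene took a mean of 1.17% of all counts, the first 10 took 7.52% and the first 50 took 15.8%. The 100 members took 20.9% ± 2.73 (SD over 12 libraries, 17.7% to 26.6%). Doubling the list to 200 genes brought the share to 27.6%, and 1000 genes held 51.2%. The share therefore rose slowly beyond the first few ranks: ranks 101 to 200 held 6.10% to 7.04% of the counts in the 36 libraries. The boundary of the list was shallow. ENSMFAG00000030581 and ENSMFAG00000037198, at ranks 99 and 100, had a mean of 848 and 847 CPM, and ENSMFAG00000041810 and ENSMFAG00000033624, just outside, had 846 and 845 CPM. By comparison the SD over libraries of ENSMFAG00000030581 was 233 CPM.

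The most abundant genes of each library were mostly members, but the list was not the same in every library. Of the 100 members, 42 were among the 100 most abundant eligible genes of each of the 36 libraries, and a single library's own list held 76 to 94 of the members. In all, 188 genes entered the list of at least 1 library. A list chosen in the same way on the Para09 50 mg/kg libraries shared 93 of its 100 genes with the members, and a list chosen on the Para09 200 mg/kg libraries shared 94. ENSMFAG00000046424 ranked first among the members in 33 libraries, ENSMFAG00000041988 in 2 and ENSMFAG00000046427 in 1.

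CPM favours long genes, and the median width of the members was above that of all genes with a count. Their gene width had a median of 3857 bases (204 to 41264), against 1917 bases for all 23973 genes with a count. The latter go down to 53 bases, widths that the rule kept out of the members. The top ranks were not the long members: ranks 1 to 4 by CPM were 1042 to 1539 bases wide, and ranks 1 to 10 were 264 to 6113. Of the members, 62 were also among the 100 eligible genes of highest mean deposited RPKM in the anti-gD libraries. On that per-length scale ENSMFAG00000020465, with a width of 264 bases and rank 5 by CPM, had the highest level (mean 16175 RPKM), followed by ENSMFAG00000046427 (5347 RPKM). The longest member, ENSMFAG00000033704 (41264 bases, rank 91 by CPM), had a mean of 12.7 RPKM and rank 3320 on that scale.

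One block of consecutive identifiers filled most of the top ranks. Of the 10 most abundant members, 7 had identifiers between ENSMFAG00000046415 and ENSMFAG00000046427, and 10 of the 13 identifiers in that block were members. These 10 were 346 to 1812 bases wide (median 998.5). The block was noticed after the values were seen, and it is used only to describe them. ENSMFAG00000046424 had a mean of 11750.4 CPM ± 2536 over the 4 anti-gD animals, ENSMFAG00000046427 had 10702 CPM ± 3035, ENSMFAG00000046417 had 9553 CPM ± 2375 and ENSMFAG00000046416 had 8379 CPM ± 2782 (SD, n = 4 each). The other members of the block in the first 10 were ENSMFAG00000046421, ENSMFAG00000046425 and ENSMFAG00000046420, with a mean of 6582, 5196 and 4442 CPM over the same animals. The 3 genes of the first 10 outside the block were ENSMFAG00000020465 (7455 CPM ± 1990), ENSMFAG00000041988 (6233 CPM ± 4091) and ENSMFAG00000038846 (5089 CPM ± 1204).

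The share of the members was compared first by animal, with the counts of the 3 libraries summed. Among the anti-gD animals it was 18.2% in 1501, 24.1% in 1502, 20.8% in 1503 and 20.7% in 1504. At Para09 50 mg/kg it was 21.4% in 4501, 21.3% in 4502, 23.5% in 4503 and 20.8% in 4504. At Para09 200 mg/kg it was 20.9% in 5501, 22.0% in 5502, 21.2% in 5503 and 21.5% in 5504. The lowest and the highest animal were both controls, the 3 groups overlapped with all animals in, and the group at 200 mg/kg lay within the range of each other group. The means were 20.9% ± 2.39 for anti-gD, 21.8% ± 1.20 for Para09 50 mg/kg and 21.4% ± 0.439 for Para09 200 mg/kg (SD over animals, n = 4). In a single library the 95% Wilson interval of the share was at most 0.0447 percentage points wide, which covers counting error only.

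**Figure D1:**
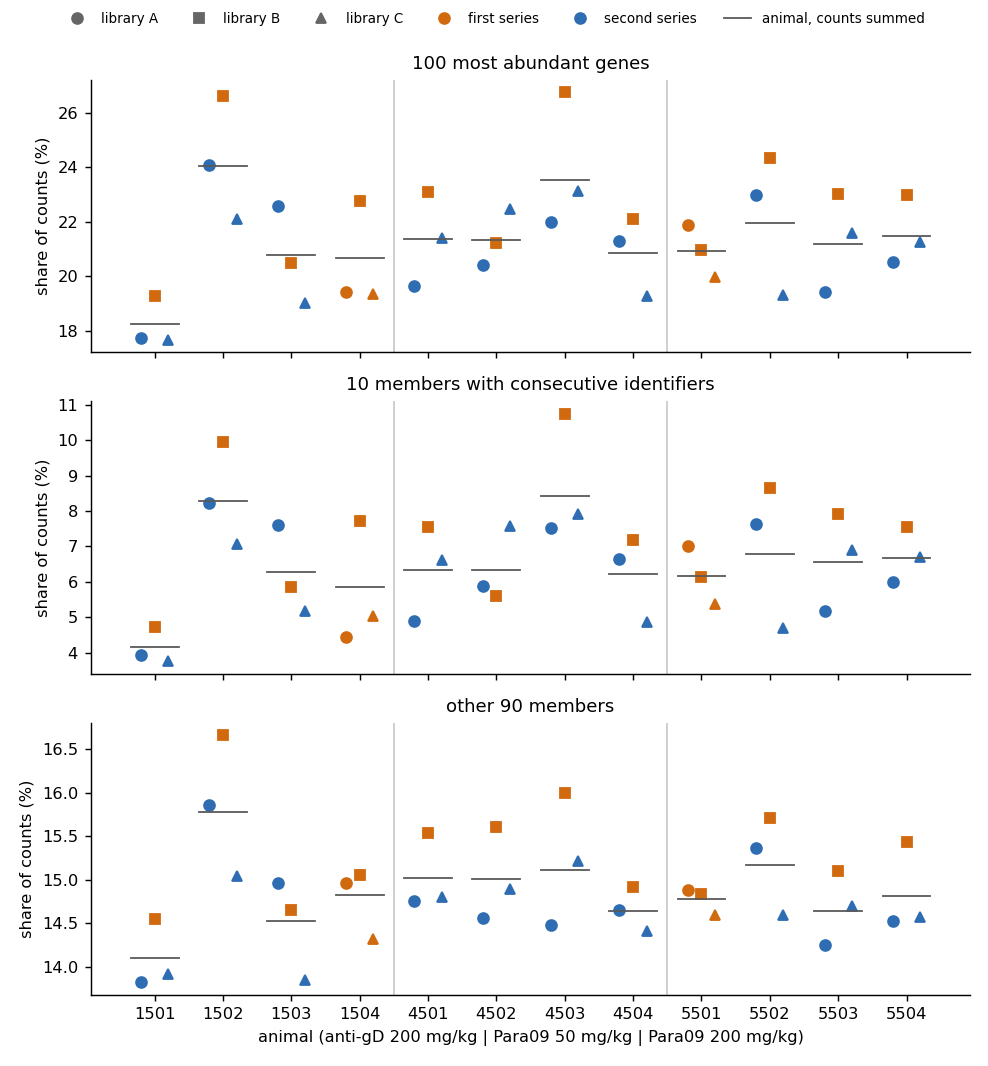
Share of all counts (percent) in each library for the 100 members, for the 10 members of the block of consecutive identifiers and for the other 90, by animal, with the marker giving the letter, the colour giving the series and the grey line giving the animal's summed counts. The B libraries (squares) are the highest of the animal for the 100 members in 8 of the 10 animals with libraries in both series, and the block spans 3.76% to 10.7% of counts against 13.8% to 16.7% for the other members.

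The contrast between the doses of Para09 used no library that chose the members. The share was lower at 200 than at 50 mg/kg by 0.372 percentage points (difference -0.372), less than the SD between animals of the group at 50 mg/kg, with p = 0.743 in an exact two-sided permutation test of 4 animals against 4 (smallest possible p 0.0286; Benjamini-Hochberg adjusted p = 0.743 over the 4 tests of the share). Within the B libraries the difference was -0.453 and within the second series, with 3 animals against 4, it was -0.410. Animal 4503 decided its sign: without it the difference was 0.218 points. To set each Para09 dose against anti-gD without using a list chosen on either, the 100 genes were chosen again on the third group. With genes chosen on the 50 mg/kg libraries, the share at 200 mg/kg was 21.4% ± 0.507 against 20.9% ± 2.36 in anti-gD (difference 0.547, exact permutation p = 0.657, adjusted p = 0.743). With genes chosen on the 200 mg/kg libraries, the share at 50 mg/kg was 21.8% ± 1.24 against 20.9% ± 2.37 (difference 0.880, exact permutation p = 0.429, adjusted p = 0.743). Both differences changed sign without control animal 1501, to -0.326 and -0.0249. Without control animal 1502 they were 1.58 (exact permutation p = 0.114) and 1.90 (exact permutation p = 0.0571, the smallest that 3 animals against 4 allow). The members themselves gave differences of 0.447 and 0.819, also of the other sign without 1501 (-0.454 and -0.0818). Without 1502 they gave 1.49 and 1.86, and neither Para09 group then overlapped the 3 remaining controls, so the overlap with anti-gD rests on that animal. These contrasts share their control animals.

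Gene by gene, no member passed the test between doses. All 100 members were among the 17360 genes tested on counts summed per animal with edgeR's quasi-likelihood test (TMM scaling, 12 animals in 1 fit). For 200 against 50 mg/kg 0 of 100 members had an adjusted p (Benjamini-Hochberg over all genes tested) under 0.05, where 0% of all genes did, and 0 of 100 had an unadjusted p under 0.05, where 2.54% did. The lowest adjusted p of a member was 0.961. The median log2 fold change of the members was -0.02 (-0.39 to 0.23) against 0.01 for all genes, and 43 of 100 were higher at 200 mg/kg against 52.9% of all genes. No member had animals of the 2 doses that did not overlap, where 2.68% of all genes did. DESeq2 also called 0 members in this contrast.

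The contrasts with anti-gD, described only, looked alike. At 200 mg/kg against anti-gD 0 of 100 members were called (0% of all genes) and 0 had an unadjusted p under 0.05 (3.98% of all genes), with log2 fold changes of -0.40 to 0.31 and a median of 0.02. At 50 mg/kg against anti-gD 0 of 100 members were called (0% of all genes) and 0 had an unadjusted p under 0.05 (5.74% of all genes), with log2 fold changes of -0.45 to 0.62 and a median of 0.06. DESeq2 called 0 members in both. The means of the 3 groups rose from anti-gD through 50 to 200 mg/kg for 14 members and fell for 6, while 45 were highest and 35 lowest at 50 mg/kg.

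**Figure D2:**
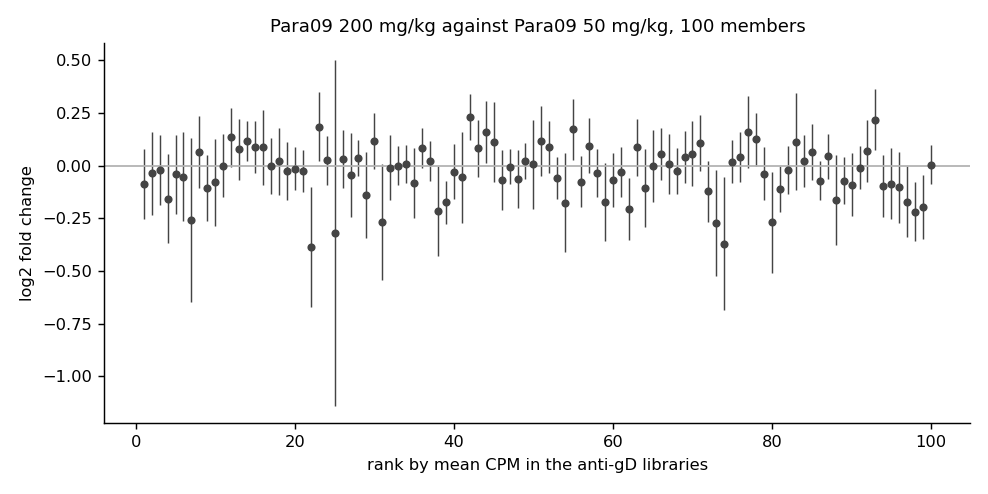
Log2 fold change of each member at Para09 200 mg/kg against Para09 50 mg/kg (edgeR, 4 animals each), by rank of mean CPM in the anti-gD libraries, with bars of 1 standard error. The 100 points lie between -0.39 and 0.23, and the widest bar belongs to ENSMFAG00000046426 at rank 25.

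The members with the smallest p between doses overlapped between them. ENSMFAG00000041772 had 1567, 1287, 1248 and 1442 CPM in animals 4501 to 4504 and 1917, 1512, 1576 and 1565 CPM in animals 5501 to 5504 (log2 fold change 0.23 ± 0.11 SE, edgeR adjusted p = 0.961). The doses overlapped, since 5502 and 5504 lay below 4501. ENSMFAG00000046051 had 698, 719, 677 and 765 CPM at 50 mg/kg and 1134, 744, 749 and 726 CPM at 200 mg/kg (log2 fold change 0.22 ± 0.14 SE, edgeR adjusted p = 0.961). Its only high animal at 200 mg/kg was 5501, whose 3 libraries are all in the first series. On the lower side, ENSMFAG00000043955 had a mean of 1460.3 CPM ± 124 at 200 mg/kg against 1633 ± 99.3 at 50 mg/kg, and ENSMFAG00000038574 had 739 CPM ± 19.2 against 853 ± 138 (SD, n = 4; edgeR log2 fold changes -0.17 and -0.22, adjusted p = 0.961 for both).

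Between the 3 libraries of an animal the share moved by 1.61 to 5.05 percentage points (median 3.43 over 12 animals), so in each animal it moved by more than the group means differed. In a sequential split of the sum of squares of the share over the 36 libraries, series took 8.73%, dose group 5.41%, animals within a group 56.3% and libraries within an animal 29.6%. Series entered first, then group and animal. These parts have unequal degrees of freedom, so their percentages cannot be compared as sizes of effect. For single members on the log2 CPM scale the median shares were 14.5% for series, 2.71% for group, 34.2% for animal and 38.7% for library. For all 14627 genes averaging 1 CPM or more they were 22.6%, 3.91%, 27.5% and 35.2%. Members varied by a median SD of 0.32 on the log2 scale over libraries, against 0.36 for those genes.

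The block of consecutive identifiers varied more than the other members, with an SD of 1.60 against 0.604 percentage points over the 36 libraries. Its 10 members took 3.76% to 10.7% of the counts of a library (median 6.66%), and the other 90 took 13.8% to 16.7% (median 14.8%). By animal, the block took 4.15% in 1501, 8.28% in 1502, 6.27% in 1503 and 5.86% in 1504. At 50 mg/kg it took 6.33% in 4501, 6.33% in 4502, 8.42% in 4503 and 6.21% in 4504, and at 200 mg/kg it took 6.16% to 6.79%. Animals 1502 and 4503 were the highest and 1501 the lowest for the block, as for all 100. Over the 36 libraries the share of the 100 followed that of the block, which is part of it, with Pearson's r of 0.986. The summed shares of the block and of the other 90 also moved together (r = 0.805). This did not hold for the 90 gene by gene. On log2 CPM their r with the block members other than ENSMFAG00000046426 had a median of -0.100 (-0.881 to 0.992). The share of the 100 had r of -0.439 with total counts, and the share of the block had r of 0.642 with the share of the genes set aside. Libraries share animals, so these r values describe the 36 libraries only. The part of depth or of the genes set aside in these shares was not tested.

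The block's members other than ENSMFAG00000046426 moved together across libraries. With the series means removed, the pairwise r of these 9 on log2 CPM over 36 libraries had a median of 0.916 (0.733 to 0.984). The 4 shortest members outside the block were set against the mean of these 9, an r that is not comparable with the pairwise r. They followed that mean closely: ENSMFAG00000020465 (264 bases, r = 0.964), ENSMFAG00000032281 (306 bases, 0.962), ENSMFAG00000027191 (204 bases, 0.955) and ENSMFAG00000022923 (207 bases, 0.951). These 4 took 0.730% to 2.16% of counts. The block and these 4 together took 4.49% to 12.9%, while the remaining 86 members held 12.9% to 14.7% (SD 0.380 percentage points over libraries).

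Among the 90 members outside the block, 12 had r of at least 0.7 with the mean of the block and 13 had r of at most -0.7. The 12 had a median width of 2129 bases and included ENSMFAG00000032399 (r = 0.910), a gene of 5121 bases. The 13 were 2925 to 14025 bases wide (median 4238), close to the median of 4056 bases of the 65 members with r between these limits. Together the 13 took 1.13% to 2.13% of counts. ENSMFAG00000030581, at the boundary of the list, was one of them (r = -0.800). Since shares sum to a fixed whole, part of a negative r is built in, and its size was not tested.

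**Figure D3:**
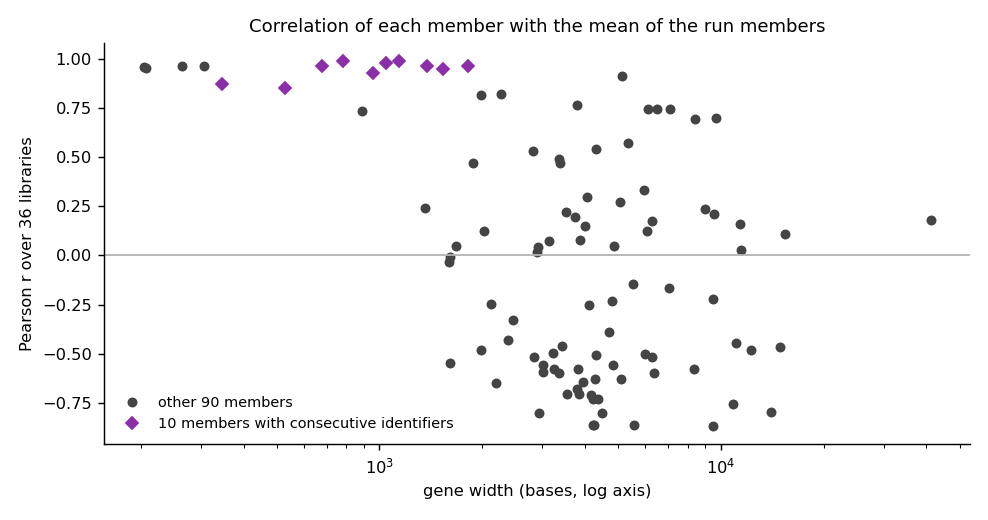
Pearson's r of each member's log2 CPM with the mean of 9 members of the block of consecutive identifiers over 36 libraries, series means removed, against gene width in bases (log axis). The 4 shortest members outside the block lie at 0.951 to 0.964 beside the block's own members, while longer members spread from below -0.7 to above 0.7. Each of the 9 is part of that mean, which raises its own r.

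Some members varied on their own. ENSMFAG00000041988, at rank 7, ranged from 1743 to 15305 CPM over the libraries (median 5311). In animal 4503 it was 3661 CPM in A, 3654 in B and 13057 in C, a ratio of 3.57 between highest and lowest. Its animals spanned 2356 CPM in 1501 to 12008 in 1502, both controls, and the highest r of another member with it was 0.660 (ENSMFAG00000031336). ENSMFAG00000036633 ranged from 1036 to 4549 CPM, with 1256 CPM in library 4503A and 4549 in 4503C. At the other end, ENSMFAG00000031057 stayed between 1176 and 1569 CPM in all 36 libraries, the smallest SD of any member (0.09 on the log2 scale). For 78 members the highest library of an animal was less than 1.5 times the lowest in the median animal.

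The series comparison was made within the 7 Para09 animals that have libraries in both series, none of which chose the members. The share was 23.1%, 21.2%, 26.7% and 22.1% in the B libraries of 4501 to 4504, and the mean of A and C minus B was -2.54, 0.243, -4.19 and -1.82 percentage points in these animals. In 5502, 5503 and 5504 the share was 24.4%, 23.0% and 23.0% in B, and the mean of A and C minus B was -3.21, -2.49 and -2.08 points. Animal 4502 was the only one of the 7 whose B library was not above that mean. The mean difference was -2.30 points (SD 1.37; 21.1% ± 0.777 in the second against 23.4% ± 1.78 in the first series), lower in 6 of 7 animals, with p = 0.0313 in an exact two-sided sign-flip permutation test (smallest possible p 0.0156). After adjustment over the 4 tests of the share p was 0.125, so the difference did not pass. Splitting off the block was an alternative added after the data were seen and lies outside the 4 adjusted tests, so its values are a description. The 90 members outside the block were lower in all 7 animals, with a mean difference of -0.773 points. The block alone had a mean difference of -1.52 points and was higher in 4502, by 1.12 points. When the larger total implied by the RPKM values was the denominator, the shares were 12.6% in the second and 13.4% in the first series, a difference of -0.769 points (exact sign-flip p = 0.0313). Relative to the first-series share that is -5.75%, against -9.84% on summed counts.

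Series and letter B coincide in those 7 animals and cannot be told apart there. The animals whose 3 libraries are all in the first series give the letter alone: the mean of A and C minus B was -3.40 points in 1504 and -0.0440 points in 5501. Animal 1504 is a control whose libraries helped to choose the members, so its value is a description, and 5501 alone does not settle how much of the difference goes with the letter.

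Of the 100 members, 47 were called between series. In an edgeR fit of the 24 Para09 libraries with animal as a block, 16 members were higher in the second series, where 21.8% of the 16555 genes tested were, and 31 were lower, where 18.1% were (adjusted p under 0.05, Benjamini-Hochberg). The share called higher was thus below that of all genes and the share called lower above it, and the next 100 genes by rank gave 17 higher and 22 lower. Neither excess was tested. The members called lower had a median log2 fold change of -0.36 (-0.90 to -0.18) and included 7 of the 10 most abundant. The members called higher had a median of 0.44 (0.23 to 4.73) and included none of these 10. Of the 10 block members, 8 were called lower and 1 higher, and of the 12 others that followed the block 8 were lower. The 7 called lower among the 10 most abundant were block members and ENSMFAG00000020465, which followed the block. These genes moved together across libraries, so their calls are not separate observations. The count of 31 fell to 18 without animal 4503 and to 15 without 5503, and the count of 16 fell to 9 without 4504. Without library 5501B, which had a count in the fewest genes, 16 were higher and 32 lower. With the letter as a further term, which leaves the series difference to rest on libraries 5501A and 5501C, 1 member was higher (1.2% of all genes) and 0 were lower (4.18% of all genes), with 2 members at an unadjusted p under 0.05.

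**Figure D4:**
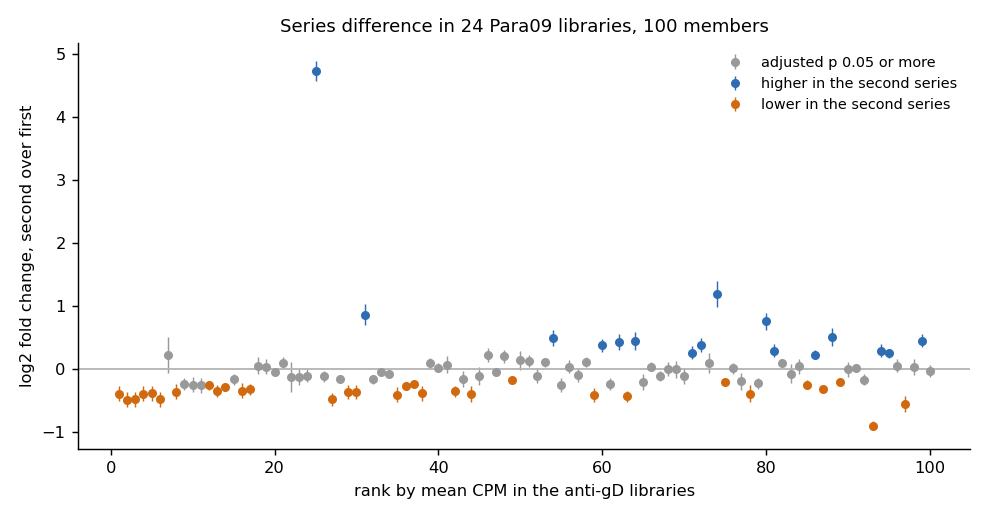
Log2 fold change of each member between the second and first series (edgeR, 24 Para09 libraries, animal as a block) by rank of mean CPM in the anti-gD libraries, with bars of 1 standard error and colours for an adjusted p under 0.05. One member, ENSMFAG00000046426 at rank 25, stands at 4.73, and 7 of the first 10 ranks are called lower.

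One member was high in the second series and low in the first. ENSMFAG00000046426, 528 bases wide and part of the block, had 75.8 to 231 CPM (median 154) in the 16 first-series libraries and 2255 to 6044 CPM (median 4322) in the 20 second-series libraries, a ratio of medians of 28.0. The series did not overlap. The A and C libraries of the first-series animals were at the first-series level, with 87.3 CPM in 1504A, 127 in 1504C, 202 in 5501A and 140.3 in 5501C, so the level went with the series and not with the letter. Its edgeR log2 fold change was 4.73 ± 0.16 SE (adjusted p = 2.81e-14). With the letter as a further term in the same 24 libraries it was 4.56 ± 0.36 SE (edgeR adjusted p = 5.30e-07), where the series part rests on 5501A and 5501C. Its r with the other 9 block members was a median of -0.209 over the 36 libraries and 0.800 once series means were removed.

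By animal, ENSMFAG00000046426 summed to 142 CPM in 1504 and 164 CPM in 5501 and to 1519.9 to 3798 CPM in the other 10 animals. Its dose contrasts therefore carry the uneven spread of series over groups, which held 6 anti-gD, 4 Para09 50 mg/kg and 6 Para09 200 mg/kg libraries of the first series. Its log2 fold change at 50 mg/kg against anti-gD, 0.62 ± 0.82 SE (edgeR adjusted p = 0.932), was the highest of any member in that contrast.

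Of the other members with the smallest p, some separated by series and some did not. ENSMFAG00000003668 had 262 to 855 CPM in the first and 1080.5 to 2365 CPM in the second series (log2 fold change 1.19 ± 0.21 SE, edgeR adjusted p = 2.21e-04), and 561, 398, 820.1 and 384 CPM in libraries 1504A, 1504C, 5501A and 5501C. With the letter as a term in the 24 Para09 libraries its difference was 0.00 ± 0.48 SE (edgeR adjusted p = 1). ENSMFAG00000046051 had 929 to 1281 CPM in the first and 422 to 689 CPM in the second series (log2 fold change -0.90 ± 0.07 SE, edgeR adjusted p = 1.62e-08), without overlap, and 964 to 1168 CPM in the 4 first-series A and C libraries. With the letter as a term in the 24 Para09 libraries its difference was -0.73 ± 0.22 SE and no longer passed (edgeR adjusted p = 0.0667). ENSMFAG00000037021 had 792 to 1125 CPM in the first and 702 to 898 CPM in the second series (log2 fold change -0.31 ± 0.05 SE, edgeR adjusted p = 2.68e-04), so its series overlapped.

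**Figure D5:**
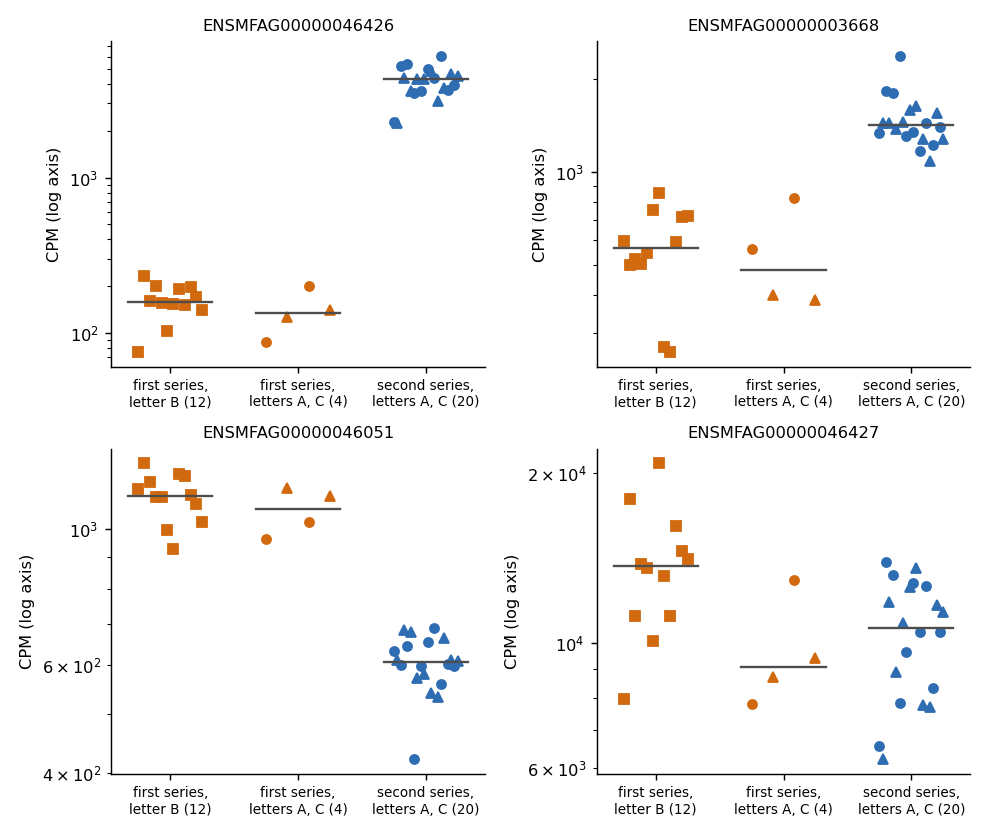
CPM (log axis) of 4 members in each library, grouped by series and letter with the number of libraries in brackets, the line marking the median. ENSMFAG00000046426 does not overlap between series (75.8 to 231 against 2255 to 6044 CPM), and its 4 first-series A and C libraries lie with the B libraries; ENSMFAG00000046427, also of the block, overlaps widely.

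Differences between animals of a dose were tested over their 3 libraries each, with series as a term, in the 24 Para09 libraries. No member passed (0 of 100, against 5.66% of all genes; edgeR quasi-likelihood, adjusted p under 0.05). An unadjusted p under 0.05 was found for 16 members and 22.5% of all genes, and DESeq2 called 10 members and 16.1% of all genes. The 4 members of smallest p were ENSMFAG00000040724, ENSMFAG00000044363, ENSMFAG00000042100 and ENSMFAG00000032399, with edgeR adjusted p of 0.0576, 0.0580, 0.0758 and 0.0924. ENSMFAG00000040724 was 1148, 1099.6, 1104 and 886 CPM in 4501 to 4504 and 1116, 1109, 1123 and 983 CPM in 5501 to 5504, with 4504 and 5504 the low animals. ENSMFAG00000044363 ran from 696 CPM in 4503 to 1559.7 CPM in 4504, both at 50 mg/kg. ENSMFAG00000032399 was highest in 4503 (2609 CPM) and among controls in 1502 (2807 CPM), the animals high for the block. In the fit of all 36 libraries, which adds the controls that chose the members, 26 members and 20.1% of all genes were called. Libraries of 1 animal are its replicates only, and whether they came from separate pieces of tissue is not stated.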

How the data were processed

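Members and lists were chosen with earlier results of these data known. Each deposited table holds a read count, a width and an RPKM for every gene of 1 library, per the file headers. The aligner, per the submitters' processing notes, was GSNAP (version not stated). The sources used here do not give the genome build, the annotation, the use of strand or the handling of multiply matching reads. The deposited counts were used as they stand. From the deposited RPKM values, which are counts per kilobase of width scaled to a total above the summed counts, only ranks by length and that total were taken. Tests used edgeR 4.0.16 (TMM, filterByExpr), with DESeq2 1.42.0 and limma 3.58.1 as alternatives, in R 4.3.3. Shares and exact tests used Python 3.11.15 with scipy 1.17.1. The animal (counts summed over 3 libraries) was the replicate for dose. Whether animals were otherwise related is not stated, so p-values measure the spread between these samples. All 630 pairs of libraries differed beyond counting error (chi-square divided by its degrees of freedom, 8.70 to 289), so each was kept as a library of its own. Scripts were checked on simulated data. Members described singly are the 10 of highest mean CPM, the 2 on each side of the boundary, the 2 higher and the 2 lower of smallest p between doses and between series, and the 4 of smallest p between animals. ENSMFAG00000036633, ENSMFAG00000031057, ENSMFAG00000033704 and ENSMFAG00000031336, the 3 shortest members beside ENSMFAG00000020465 and the block of identifiers were singled out after their values were seen. The alternatives tried were other denominators, list lengths, scalings, filters, tools and libraries. Cell type markers could not be applied without symbols.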

Additional observations from a re-analysis of the deposited data

Results flagged for a closer look

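In 81 sets of values (the shares and the members described singly), an animal that lay far from the rest of its set was looked for, and 10 sets held one. Most sets were the 4 animals of a group. The others held, for the shares, the mean of A and C minus B in the Para09 animals with both series, and none of these was flagged. Chance flags about 1 in 20 groups of independent values, but these members share libraries and some were picked for a small p between animals, doses or series, so the count of 10 is not read against that rate. Animal 4503 was the highest of the Para09 50 mg/kg group for the share of the block of consecutive identifiers (8.42%, next 6.33%). It was also the highest for 4 members of that block: ENSMFAG00000046427 (14971 CPM, next 10712), ENSMFAG00000046416 (11146 CPM, next 9037), ENSMFAG00000046421 (9444 CPM, next 6865) and ENSMFAG00000046425 (6458 CPM, next 5223). These values share libraries and are not separate observations. Animal 5501, whose libraries are all in the first series, was the highest of the Para09 200 mg/kg group for ENSMFAG00000041772 (1917 CPM, next 1576) and ENSMFAG00000046051 (1134 CPM, next 749), and the lowest for ENSMFAG00000003668 (473 CPM, next 1092). Animal 5504 was the lowest of that group for ENSMFAG00000040724 (983 CPM, next 1109). Control animal 1502 was the highest for ENSMFAG00000042100 (1089 CPM, next 959.7).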

How the results depend on the processing

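No member was called in any dose contrast under any alternative run. The share at 200 against 50 mg/kg stayed between -0.679 and 0.218 points when 1 animal was left out. The contrasts on genes chosen in the third group stayed between -0.326 and 1.58 points (200 mg/kg against anti-gD) and between -0.0249 and 1.90 (50 mg/kg). The series difference stayed between -2.72 and -1.98 points, and with 6 animals its exact p cannot go below 0.0313. Members called higher in the second series were 1 with the letter as a term, 1 in the 36 libraries with the letter and 9 to 18 without 1 animal. Members called lower were 0, 1 and 15 to 31. The 36 libraries include the controls that chose the members. Members called between animals of a dose were 1 with RLE size factors, 10 with DESeq2, 1 without the filter, 26 in all 36 libraries, 5 with the letter and 0 to 1 without 1 animal. The cause of these changes was not tested. No paired analysis was possible because each animal received 1 treatment and the labels pair no animals across groups; the series comparison was made within animals.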
